A study of Mus musculus with 10 samples.

Results

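The Rag GTPases and their lysosomal partners, the machinery that tells mTORC1 whether amino acids are at hand, were followed through the NPM1 and H3K4me3 CUT&Tag peaks of mouse macrophages. The 10 genes were 3 Rag GTPases (Rraga, Rragc and Rragd), the 5 Ragulator subunits (Lamtor1 to Lamtor5) and the folliculin complex (Flcn and Fnip1). They were chosen by their function, and all 10 were found among 21887 protein-coding genes. For each, the peaks of 6 libraries over the annotated gene and the 5 kb on either side were read, with their position, width, fold enrichment and rank. In CUT&Tag a transposase tethered to an antibody inserts sequencing adapters into the chromatin around the antibody's target. NPM1 (nucleophosmin) is a nucleolar and nuclear histone chaperone, and H3K4me3 is a histone mark of active promoters.

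Rag GTPases work as heterodimers of RagA or RagB with RagC or RagD, and when amino acids are plentiful the dimer recruits mTORC1 to the lysosomal surface. Ragulator, a pentamer anchored by the lipidated subunit LAMTOR1, holds the dimer on that surface. Folliculin with FNIP1 or FNIP2 is the GTPase-activating protein for RagC and RagD, and it is required for the mTORC1-dependent retention of TFEB and TFE3 in the cytoplasm, which in macrophages governs lysosomal and inflammatory genes.

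The NPM1 libraries from the heart came from cardiac macrophages of wild-type (WT) mice, taken at day 3 after myocardial infarction or after a sham operation. The second NPM1 pair came from macrophages derived from WT bone marrow (BMDM) over 7 days in 50 ng/ml M-CSF and then exposed for 12 hours to interleukin-4 (IL-4) at 20 ng/ml or left untreated. H3K4me3 was mapped in cardiac macrophages at day 3 after infarction from mice labelled Npm1 knockout (KO, described as a conditional deletion) and from WT mice. The series held 10 libraries, 1 per group, and 6 are used. The remaining 4, from BMDM under IL-4 in each genotype with antibodies for H3K4me3 and for K5 (as labelled), are not analysed here. Not given in the sources used here are the Cre driver, the deleted exons, the age and sex of the mice, the number of hearts per library and the way cardiac macrophages were purified. Since every group is a single library, differences have no replicate check, and p-values are not reported.

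The infarct list held 79893 peaks, the sham list 58011, the IL-4 list 104514, the untreated list 58989, the KO H3K4me3 list 52977 and the WT H3K4me3 list 73321. The genome-wide background recovered from the peak values was 3.03 reads per position in infarct and 1.29 in sham (a ratio of 2.35). It was 4.18 in IL-4 and 1.31 in untreated BMDM (3.18), and 2.49 in KO and 2.92 in WT for H3K4me3 (0.853). Of 8 macrophage marker genes, all 8 carried a peak within 1 kb of a gene end in infarct and 1 in sham, all 8 in IL-4 and 0 in untreated BMDM, and all 8 in both H3K4me3 libraries. Over all genes the shares with such a peak were 50.6% in infarct, 10.9% in sham, 51.2% in IL-4 and 6.71% in untreated BMDM. For H3K4me3 they were 61.8% in KO and 57.1% in WT. The sham and untreated lists stood apart from the other 4, with a shallow background and few peaks at gene ends in general. Their macrophage marker counts were near those shares. In the H3K4me3 libraries 0 of 6 cardiomyocyte markers had a gene-end peak in KO and 1 in WT, 3 of 5 fibroblast markers in KO and 1 in WT, and 3 of 4 endothelial markers in KO and 1 in WT. For neutrophil markers the counts were 1 of 4 in KO and 2 in WT, for T cell markers 2 of 4 in both, and for B cell markers 1 of 3 in KO and 0 in WT. In the NPM1 libraries endothelial markers had a gene-end peak at 2 of 4 in infarct and 0 in sham, and at 4 of 4 in IL-4 and 0 in untreated BMDM. T cell markers had one at 2 of 4 in infarct and 0 in sham, and at 2 of 4 in IL-4 and 0 in untreated BMDM. For cardiomyocyte markers the counts were 2 of 6 in infarct and 1 in sham, and 0 in IL-4 and in untreated BMDM. For fibroblast markers they were 1 of 5 in infarct, sham and IL-4 and 0 in untreated BMDM, for neutrophil markers 1 of 4 in the same 3 lists and 0 in untreated BMDM, and for B cell markers 0 of 3 in all 4. With −log10 q of 5 or more, infarct and IL-4 each kept 1 neutrophil and 1 T cell marker and no other marker of a non-macrophage type. KO H3K4me3 kept 1 each of the fibroblast, endothelial, neutrophil, T cell and B cell markers, and WT kept 1 endothelial marker. Macrophage markers kept were 4 in infarct, 1 in sham, 5 in IL-4, 0 in untreated BMDM, 7 in KO and 5 in WT. The shares of all genes at that threshold are given below. The part of other cells in the differences below was not tested. At the Npm1 gene itself the gene-end H3K4me3 peak had a −log10 q of 88.3 in KO and 20.5 in WT, which says nothing about the deletion because the mark at the promoter need not be lost with the deleted part.

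The genes lie on mm10 at chr4:86575673-86577285 (Rraga), chr4:123917433-123936997 (Rragc) and chr4:32982998-33022180 (Rragd) for the GTPases. The Ragulator genes lie at chr7:101905837-101911903 (Lamtor1), chr3:88549819-88552951 (Lamtor2, minus strand), chr3:137918555-137928762 (Lamtor3), chr5:138255482-138259395 (Lamtor4) and chr3:107278858-107284082 (Lamtor5). Flcn lies at chr11:59791408-59810039 on the minus strand and Fnip1 at chr11:54438107-54518241. The promoters of 9 genes had an entry in the RefSeq table (GRCm38.p6, the assembly that mm10 names), and Lamtor3 had none. Each entry runs from 250 bases before the annotated start and is 300 bases long. Printed here are the 4 that carry CACGTG, the E-box core that TFEB and related factors are known to bind, because the folliculin and Rag complexes sit upstream of TFEB, and the promoter of Rraga, where NPM1 peaks were called on both sides of the start in infarct and in IL-4. Rragc is at chr4:123917183-123917482, Lamtor1 at chr7:101905587-101905886, Lamtor4 at chr5:138255232-138255531, Fnip1 at chr11:54437929-54438228 and Rraga at chr4:86575423-86575722. All 5 are on the plus strand and written 5′ to 3′. Capitals mark CACGTG in the first 4, and in Rraga a 10-letter palindrome centred on CGCG.
Rragc: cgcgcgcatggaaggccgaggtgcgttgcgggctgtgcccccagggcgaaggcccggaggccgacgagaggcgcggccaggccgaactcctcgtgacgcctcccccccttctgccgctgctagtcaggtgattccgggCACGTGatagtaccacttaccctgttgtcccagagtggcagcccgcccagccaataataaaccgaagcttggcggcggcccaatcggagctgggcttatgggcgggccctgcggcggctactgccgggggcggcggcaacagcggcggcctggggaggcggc
Lamtor1: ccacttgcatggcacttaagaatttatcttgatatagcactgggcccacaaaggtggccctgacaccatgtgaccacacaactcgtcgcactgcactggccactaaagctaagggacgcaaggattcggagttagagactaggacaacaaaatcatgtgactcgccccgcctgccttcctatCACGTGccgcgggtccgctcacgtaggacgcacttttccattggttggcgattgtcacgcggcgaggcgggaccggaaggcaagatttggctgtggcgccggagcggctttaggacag
Lamtor4: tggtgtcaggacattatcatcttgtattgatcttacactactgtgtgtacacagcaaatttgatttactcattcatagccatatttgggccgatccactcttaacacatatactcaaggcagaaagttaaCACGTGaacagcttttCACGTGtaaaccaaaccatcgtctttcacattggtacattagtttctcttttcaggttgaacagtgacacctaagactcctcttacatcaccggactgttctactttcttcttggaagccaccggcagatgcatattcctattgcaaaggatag
Fnip1: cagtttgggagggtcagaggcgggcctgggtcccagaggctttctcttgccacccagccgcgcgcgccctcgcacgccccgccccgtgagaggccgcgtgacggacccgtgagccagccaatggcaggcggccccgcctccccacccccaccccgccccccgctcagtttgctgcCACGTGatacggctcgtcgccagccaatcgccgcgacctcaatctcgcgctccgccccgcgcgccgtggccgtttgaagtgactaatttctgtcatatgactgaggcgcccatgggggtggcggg
Rraga: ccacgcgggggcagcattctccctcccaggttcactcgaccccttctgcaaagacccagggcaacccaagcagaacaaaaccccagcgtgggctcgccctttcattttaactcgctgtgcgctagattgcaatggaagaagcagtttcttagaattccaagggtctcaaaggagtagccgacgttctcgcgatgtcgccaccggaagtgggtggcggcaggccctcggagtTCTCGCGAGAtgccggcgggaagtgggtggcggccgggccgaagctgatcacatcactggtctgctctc

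CACGTG, searched on both strands, occurred in the promoters of Rragc, Lamtor1, Lamtor4 and Fnip1, 4 of 9, against 7.84% of 21263 promoters of the same length. Lamtor4 held 2 copies, at 120 and 104 bases before its start. The copies began 112 bases before the start in Rragc, 68 in Lamtor1 and 75 in Fnip1. At Rragc, Lamtor1 and Fnip1 the motif lay inside the NPM1 peaks of infarct and of IL-4 and inside the H3K4me3 peaks of KO and WT. At Lamtor4 it lay inside the KO H3K4me3 peak and in no other peak of the 6 lists. None of the 9 promoters held the longer CLEAR palindrome, CACGTG preceded by GT and followed by AC, which occurred in 0.419% of promoters. The other motifs searched were CCAAT in 6 of 9 (38.2% of promoters), GGGCGG in 3 (46.2%) and CCGGAA in 6 (18.7%). The palindrome marked in Rraga occurred in that promoter alone of the 9 and in 0.673% of all promoters. The median GC content of the 9 windows was 59.7%, against 56.3% for all promoters, and the median number of CG dinucleotides was 20, against 13. A match is a description of the letters and not a site of binding.

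At the starts of the 10 genes NPM1 was found in the infarct and IL-4 lists and was nearly absent from the sham and untreated lists. A gene-end peak is a peak that overlaps the 1 kb on either side of either annotated end of a gene. All 10 genes had one in infarct, where 50.6% of all genes did, and 0 of 10 in sham, where 10.9% did. In IL-4-treated BMDM 9 of 10 had one (51.2% of all genes), Lamtor5 being the exception. In untreated BMDM 2 of 10 had one, Rragd and Lamtor2 (6.71% of all genes). Each of these genes had its peak in the window around the start.

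Set against its control, NPM1 was called in infarct and not in sham at all 10 genes, as at 43.4% of all genes, and in IL-4 and not in untreated BMDM at 7 genes, as at 46.5% of all genes. It was called in both IL-4 and untreated BMDM at 2 genes (4.73% of all genes). Infarct and IL-4 shared 9 genes (43.5% of all genes). Because all 10 genes carried H3K4me3 at their starts, genes with a gene-end H3K4me3 peak in WT are the closer background, and of these 79.2% had an NPM1 gene-end peak in infarct and 78.3% in IL-4. The counts of 10 and 9 genes are near those shares.

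With peaks of −log10 q of 5 or more, 6 of 10 genes kept a gene-end peak in infarct (27.9% of all genes), 0 in sham (0.681%), 7 in IL-4 (29.4%) and 0 in untreated BMDM (0.397%). Lamtor4 is the gene that passed this threshold in IL-4 and not in infarct. Depth differs within both pairs, and a deeper library gives the same enrichment a larger −log10 q, so the pileups of the deeper list were also scaled to the background of the shallower. With the infarct pileups scaled to the sham background, all 10 genes still had an infarct peak past the smallest deposited −log10 p and no sham peak, as did 40.7% of all genes, with scaled −log10 p values of 2.40 to 16.8 at their starts. With IL-4 scaled to the untreated background, the 7 genes stayed at 7 (39.1% of all genes), and 1 peak was lost, that of Rraga downstream of its start. The counts at these genes were thus the same after scaling. The scaling keeps each peak as it was called and does not model a narrower call at lower depth.

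**Figure D1:**
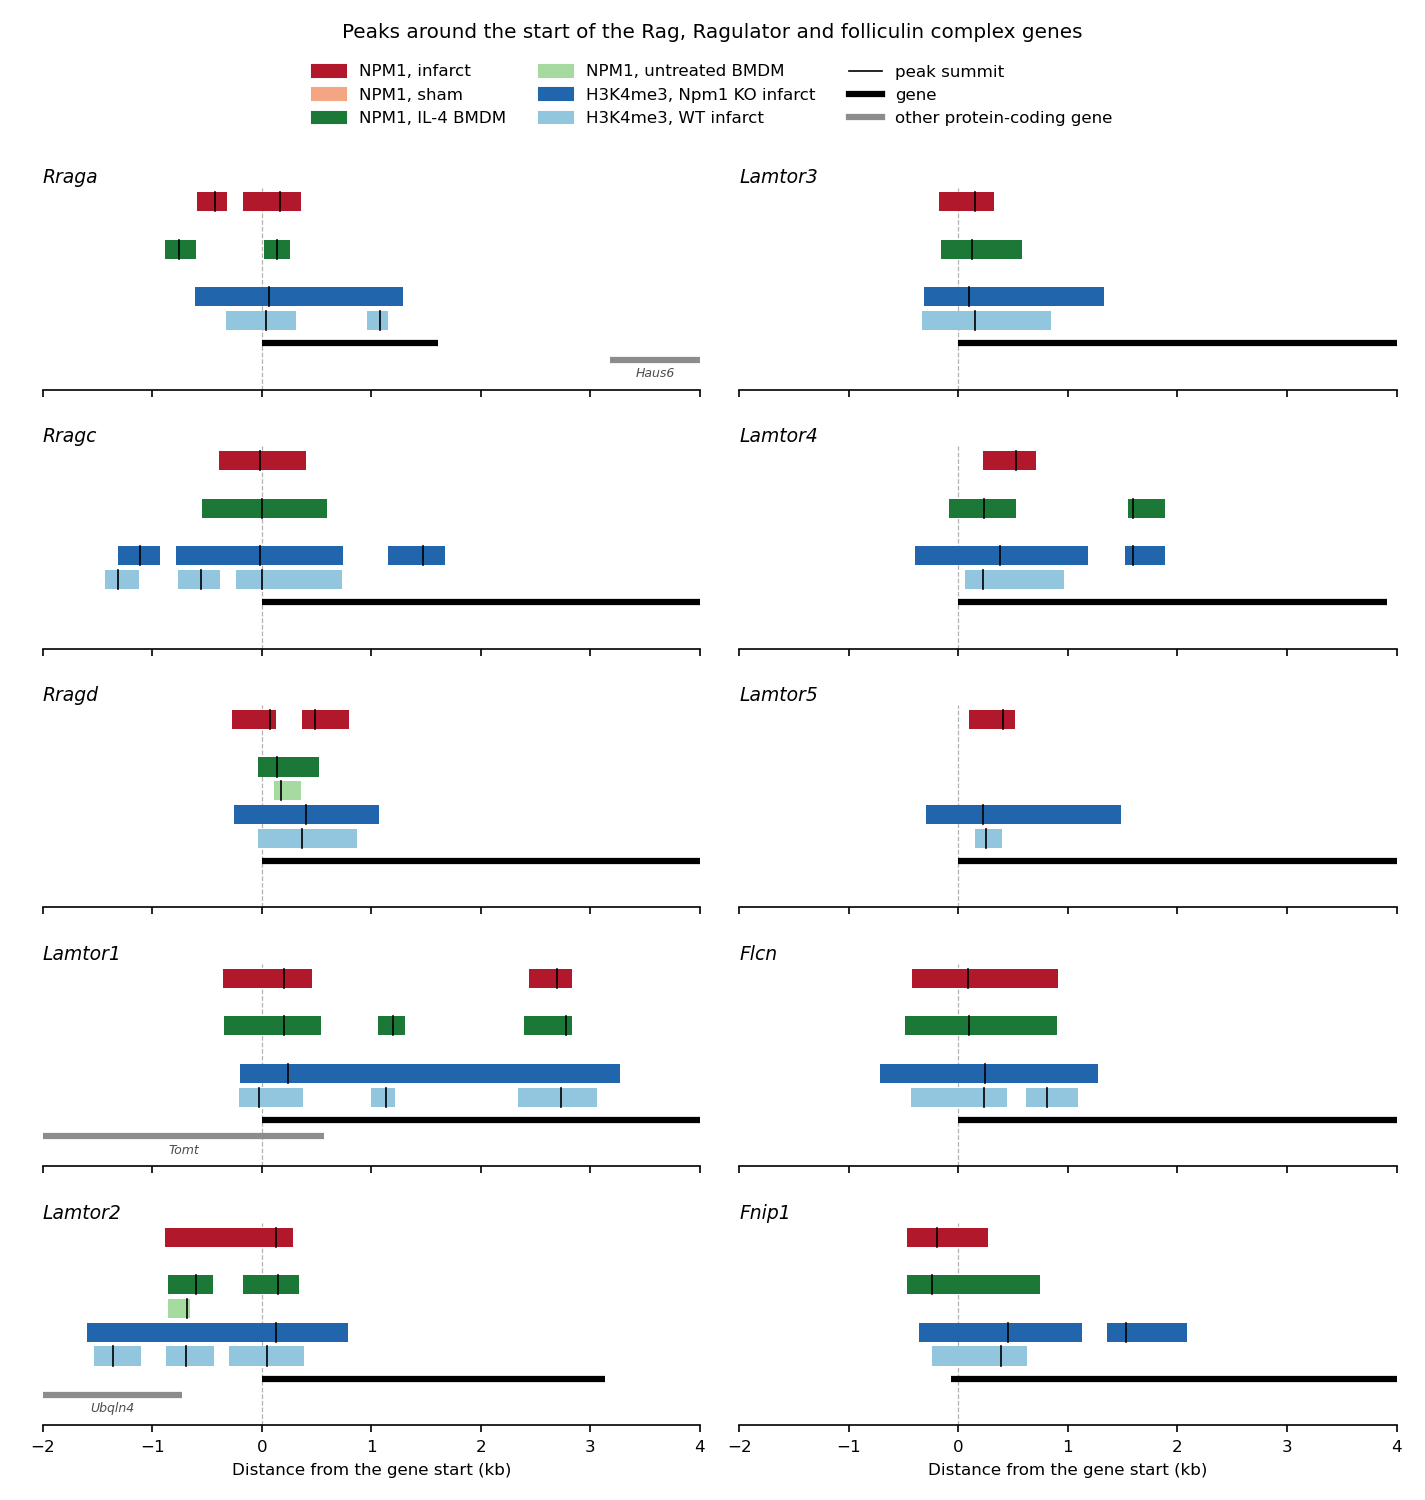
Peaks of the 6 libraries from 2 kb before to 4 kb after the start of each of the 10 genes, with distance in kb in the direction of transcription on the x axis. Coloured bars are peaks, black ticks their summits, the black bar the gene and grey bars other protein-coding genes. Infarct NPM1 bars stand at all 10 starts and sham bars at none, and the KO H3K4me3 bars cover more than the WT bars at each start.

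Rragc, which codes for RagC, had the strongest NPM1 start peak of the GTPases. In infarct it was 7.61-fold over the local background, with 50 reads at the summit over a background of 5.70 and a −log10 q of 26.0. It was 791 bp wide with the summit 18 bp before the annotated start (chr4:123917042-123917832), and it ranked 1347 of 79893 peaks by −log10 p. In IL-4 it was 6.18-fold, with 44 reads over 6.28, a −log10 q of 19.3 and a width of 1141 bp, its summit 2 bp before the start. No peak was called there in sham or untreated BMDM. The start lies beside the end of an RNA gene, D130007C19Rik, whose annotation reaches 16 bp into Rragc, so signal of a promoter shared by both cannot be divided between them.

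Rragd, the paralogue that TFEB and related factors are known to induce, carried much less. Infarct had a pair of weak peaks there, 3.26-fold with a −log10 q of 2.37 and summit 484 bp after the start, and 3.24-fold with 2.35 and summit 78 bp after it. IL-4 had 1 peak of 3.47-fold and 549 bp, with a −log10 q of 3.72. Untreated BMDM had 1 of 3.89-fold, made of 8 reads over a background of 1.31, with a −log10 q of 2.03. The untreated peak had its summit 179 bp after the start and began inside the gene, without reaching the start itself. It was the only untreated peak of the 10 genes that lay inside the gene, and its fold was no lower than in infarct or IL-4.

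Rraga, which codes for RagA, had its NPM1 divided. In infarct a 532-bp peak of 3.71-fold (−log10 q of 3.77) had its summit 168 bp after the start, and a 271-bp peak of 2.70-fold (1.22) lay 425 bp before it. In IL-4 the stronger peak was the upstream one, 3.28-fold with a −log10 q of 3.16 and summit 752 bp before the start, and the downstream one was 2.89-fold (2.12). The stronger start peak of Rraga thus sat on opposite sides of the start in infarct and IL-4, with pileups of 11 to 16 reads. No sham or untreated peak was called.

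Lamtor1, the lipidated anchor of Ragulator, had the highest infarct rank of the 10 genes. Its start peak (chr7:101905486-101906295) was 7.03-fold with 68 reads over a background of 8.82, a −log10 q of 32.6 and a rank of 900, in the top 4.64% of the genes with an infarct gene-end peak. In IL-4 it was 4.79-fold with 50 reads over 9.64 and a −log10 q of 16.6. The summits of both lay within 2 bp of each other, 207 and 205 bp after the start. Tomt, a gene of the other strand, starts 570 bp inside Lamtor1, so the start of Lamtor1 lies within Tomt and reads between the starts belong to both.

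Lamtor2, which forms a roadblock-domain heterodimer with LAMTOR3, shares its promoter region with Ubqln4, which starts 726 bp upstream on the other strand. The infarct peak was 5.51-fold, 1168 bp wide and covered both starts, with its summit 133 bp inside Lamtor2 and a −log10 q of 16.9. In IL-4 there were separate peaks for each, 5.88-fold (−log10 q of 21.1) at the Ubqln4 side, with its summit 604 bp upstream, and 5.56-fold (19.2) at 148 bp inside Lamtor2. The untreated peak, 200 bp wide with 7 reads and a −log10 q of 1.40, lay 687 bp upstream, at the Ubqln4 side. Lamtor2 therefore counted as marked in untreated BMDM through a peak that does not reach its own start.

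Lamtor3, the partner of LAMTOR2, had a 6.70-fold infarct peak of 508 bp (−log10 q of 12.8) and a 6.04-fold IL-4 peak of 736 bp (13.6). Its start was taken as the annotated end with the higher H3K4me3 fold, and the summits lay 149 and 122 bp inside it. Lamtor4 and Lamtor5, the roadblock-type subunits of the second Ragulator dimer, stood at the low end. Lamtor4 had a 2.81-fold infarct peak (−log10 q of 1.64, 13 reads) whose summit was 525 bp after the start, and a 4.13-fold IL-4 peak (7.61, 27 reads) at 234 bp. Lamtor5 had a 2.98-fold infarct peak (1.61, 11 reads) at 405 bp and none in IL-4.

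Flcn, which codes for the catalytic GAP subunit folliculin, carried the widest NPM1 start peaks of the 10 genes. The infarct peak was 1337 bp wide and 6.09-fold (51 reads, −log10 q of 21.6), and the IL-4 peak 1383 bp and 5.95-fold (46 reads, 19.4). Their summits lay 91 and 93 bp inside the gene. A lncRNA gene, Gm16062, ends or starts 41 bp from the Flcn start, and both peaks cover that point. Fnip1, the adaptor of folliculin, had a 6.06-fold infarct peak of 739 bp (38 reads, −log10 q of 16.2) and a 5.24-fold IL-4 peak of 1210 bp (36 reads, 13.4). A lncRNA gene, LOC115487771, ends or starts 216 bp after the Fnip1 start, and both peaks cover that point. It reaches to 24012 bp after the start. At Fnip1 the summits lay upstream of the start, by 198 bp in infarct and 237 bp in IL-4, while in Lamtor1, Lamtor2, Lamtor3 and Flcn the infarct summits lay 91 to 207 bp inside the gene.

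**Figure D2:**
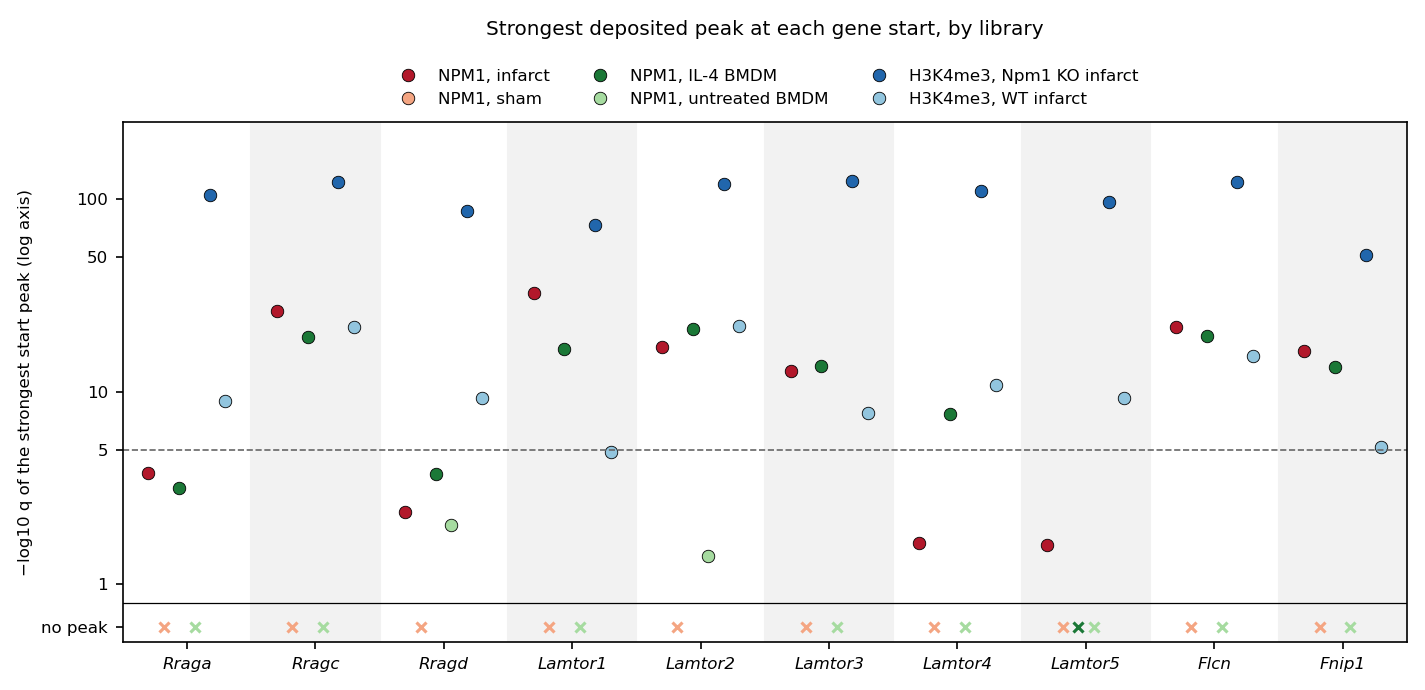
Deposited −log10 q (log axis) of the strongest start peak of each gene in each of the 6 libraries, 1 point per library, with crosses where no peak was called and a dashed line at 5. Infarct and IL-4 points lie above the line at Rragc, Lamtor1, Lamtor2, Lamtor3, Flcn and Fnip1, and all sham points are crosses.

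Taking the strongest start peak of each gene, the infarct folds of the 10 genes spanned 2.81-fold to 7.61-fold with a median of 5.79, and the IL-4 folds of 9 genes 3.28-fold to 6.18-fold with a median of 5.24. When the marked genes of a list were ranked by their best gene-end peak, the members lay between the top 4.64% and 85.7% in infarct, with a median of 21.1%, and between 14.3% and 71.3% in IL-4, with a median of 26.2%. The 14.3% was that of Lamtor2 through its peak at the Ubqln4 side, and the next was 16.3% at Flcn. Split at a −log10 q of 5, the genes gave a strong set (Rragc, Lamtor1, Lamtor2, Lamtor3, Flcn and Fnip1, −log10 q of 12.8 to 32.6 in infarct) and a weak set (Rraga, Rragd, Lamtor4 and Lamtor5, 1.61 to 3.77). Both sets cut across the complexes, since each of the GTPases and Ragulator had genes in either. The 300-base promoter window held 6 CG dinucleotides in Rragd, 6 in Lamtor4 and 4 in Lamtor5, all in the weak set, 22 in Rraga, and 19 to 34 in the 5 genes of the strong set with an entry, a description of 9 windows. By −log10 q the weak set was not weak in H3K4me3, with 86.6 to 110 in KO and 8.98 to 10.9 in WT. The strong set had 50.8 to 124 in KO and 4.85 to 21.8 in WT. The 21.8 was that of the WT peak of Lamtor2 at the Ubqln4 side, and the next was 21.7 at Rragc. By reads at the strongest start summit the weak set had 142 to 212 in KO and 22 to 31 in WT. The strong set had 142 to 273 in KO and 22 to 54 in WT, so the highest read counts were in the strong set. The 54 was again at the Ubqln4 side, and the next was 49 at Rragc. Lamtor1, with the highest infarct NPM1 rank, had the lowest −log10 q of the 10 genes for the WT H3K4me3 start peak. It did not have the fewest reads there, with 27 over a local background of 7.86. The fewest were 22, at Lamtor3 (over 3.72) and Lamtor5 (over 3.08). A stronger WT peak, with a −log10 q of 13.0, lay inside Lamtor1.

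The NPM1 peaks sat on H3K4me3. The 10 genes had 12 infarct NPM1 start peaks, and all 12 overlapped a WT H3K4me3 peak by 1 bp or more, as did the infarct start peaks of 90.7% of 10503 genes. The H3K4me3 covered a median of 84.6% of each NPM1 peak. The distance from the NPM1 summit to the nearest summit of an overlapping H3K4me3 peak ran from 4 bp at Lamtor3 to 589 bp at Fnip1, with a median of 148.5 bp over the 12 peaks. At Lamtor2, where the infarct peak overlapped a pair of WT H3K4me3 peaks, the nearer summit was 83 bp away and the stronger one, at the Ubqln4 side, 822 bp away. At Fnip1 the NPM1 summit was 198 bp before the start and the WT H3K4me3 summit 391 bp after it. At Rragc both lay within 19 bp of each other. In the IL-4 list 9 of the 10 genes had a start peak that overlapped the infarct one, 10 of 12 infarct peaks in all, as did the infarct start peaks of 85.2% of genes. To the nearest overlapping IL-4 summit the distance was 2 bp at Lamtor1 and Flcn, 15 at Lamtor2, 16 at Rragc, 26 at Rraga, 27 at Lamtor3 and 39 at Fnip1. It was 291 bp at Lamtor4, and 62 and 344 bp for the pair of infarct peaks at Rragd. At Lamtor2 the stronger IL-4 peak, at the Ubqln4 side, had its summit 737 bp away, and the stronger IL-4 peak at Rraga did not overlap an infarct peak.

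H3K4me3 was present at the starts of all 10 genes in both genotypes, and it covered more bases in KO than in WT at every one. A gene-end peak was called in both KO and WT at 10 of 10, as at 53.4% of all genes (61.8% of all genes had one in KO and 57.1% in WT). With −log10 q of 5 or more, 10 of 10 had one in KO (57.0% of all genes) and 9 of 10 in WT (42.8%). The exception in WT was Lamtor1, at 4.85. No gene gained or lost the mark at its start between KO and WT macrophages at the threshold of the deposited lists.

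Within 2 kb of the start, peaks covered a median of 1972 bp in KO and 902.5 bp in WT, and coverage was larger in KO at 10 of 10 genes. Of all genes covered in both, 97.5% were wider in KO, with medians of 1539 bp in KO and 918 bp in WT. The median difference was 935 bp for the 10 genes and 580 bp for 12315 genes. The same direction held across nearly all marked genes, so the widening is one of the whole library and nothing in it is shown to belong to these genes. Lamtor5 differed most, with 1775 bp in KO and 247 bp in WT, and Rragd least, with 1320 bp in KO and 904 bp in WT, a difference of 416 bp.

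Among the other GTPases Rraga was covered over 1893 bp in KO and 837 bp in WT, and Rragc over 2426 bp in KO and 1671 bp in WT. Lamtor1 was covered over 2200 bp in KO and 806 bp in WT, Lamtor2 over 2381 bp in KO and 1560 bp in WT, Lamtor3 over 1643 bp in KO and 1169 bp in WT, and Lamtor4 over 1950 bp in KO and 901 bp in WT. Flcn had 1994 bp in KO and 1357 bp in WT, and Fnip1 had 2129 bp in KO and 862 bp in WT. In several genes a single KO peak spanned what were separate WT peaks. At Lamtor1 the KO peak ran 3469 bp, where WT had 3 peaks of 580, 226 and 718 bp. At Lamtor2 the KO peak ran 2381 bp over both the Lamtor2 and the Ubqln4 starts, where WT had 3. The reverse held at Lamtor4 and Fnip1, each with 2 KO peaks and 1 WT peak within 2 kb of the start. Rragc had 3 peaks there in each genotype.

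The pileup at the H3K4me3 summit was also higher in KO at 10 of 10 genes, with a median KO over WT ratio of 6.40. It was higher in KO at 98.8% of 11826 genes with a start peak in both, where the median ratio was 5.63. By the strongest start summit of each list, the ratio was highest at Lamtor3, with 188 reads in KO and 22 in WT (8.55). It was lowest at Lamtor2, with 273 in KO and 54 in WT (5.06), but those summits lay at different places. The KO summit was 134 bp inside Lamtor2 and the WT one 689 bp upstream, at the Ubqln4 side. The WT peak with its summit 50 bp inside Lamtor2 had 31 reads, so the low place of Lamtor2 rests on the choice of summit. Rraga had 183 reads in KO and 26 in WT, Rragc 254 in KO and 49 in WT, and Rragd 149 in KO and 24 in WT. Like the rest of the 10 genes, these 3 GTPase genes had at least 5-fold more reads at the strongest summit in KO. Lamtor1 had 207 in KO and 27 in WT, Lamtor4 212 in KO and 31 in WT, and Lamtor5 142 in KO and 22 in WT. Flcn had 273 in KO and 43 in WT, and Fnip1 142 in KO and 24 in WT.

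The genome-wide background was lower in KO than in WT, at 2.49 reads in KO and 2.92 in WT. The local background under the summits was higher in KO, at 11.6 to 42.6 reads in KO, against 3.08 to 8.40 in WT. The fold enrichment is the summit pileup over this local background, with 1 added to each, so it is not a measure apart from these values. Whether reads of the peaks themselves raised the local background was not tested. The fold enrichment over that local background moved less, with a median KO over WT ratio of 1.57 for the 10 genes and 1.54 for all genes. It was higher in KO at 94.9% of all genes with a start peak in both. The highest fold in KO was that of Lamtor5, at 11.3 in KO and 5.64 in WT, and the highest in WT that of Rragc, at 7.09 in KO and 6.41 in WT. Lamtor1 had the lowest in both, at 4.99 in KO and 3.16 in WT. The order by fold was not that by reads. In KO, Lamtor5 had 142 reads over a local background of 11.6, and Lamtor1 207 over 40.7. Within their own lists the 10 genes ranked between the top 23.7% and 70.8% of marked genes in KO, with a median of 35.0%, and between 12.3% and 76.1% in WT, with a median of 55.4%. The 12.3% was that of Lamtor2 through its peak at the Ubqln4 side, and the next was 12.4% at Rragc. How far the enrichment of the whole KO library differs from that of the WT library for technical reasons cannot be told apart from genotype with 1 library each.

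**Figure D3:**
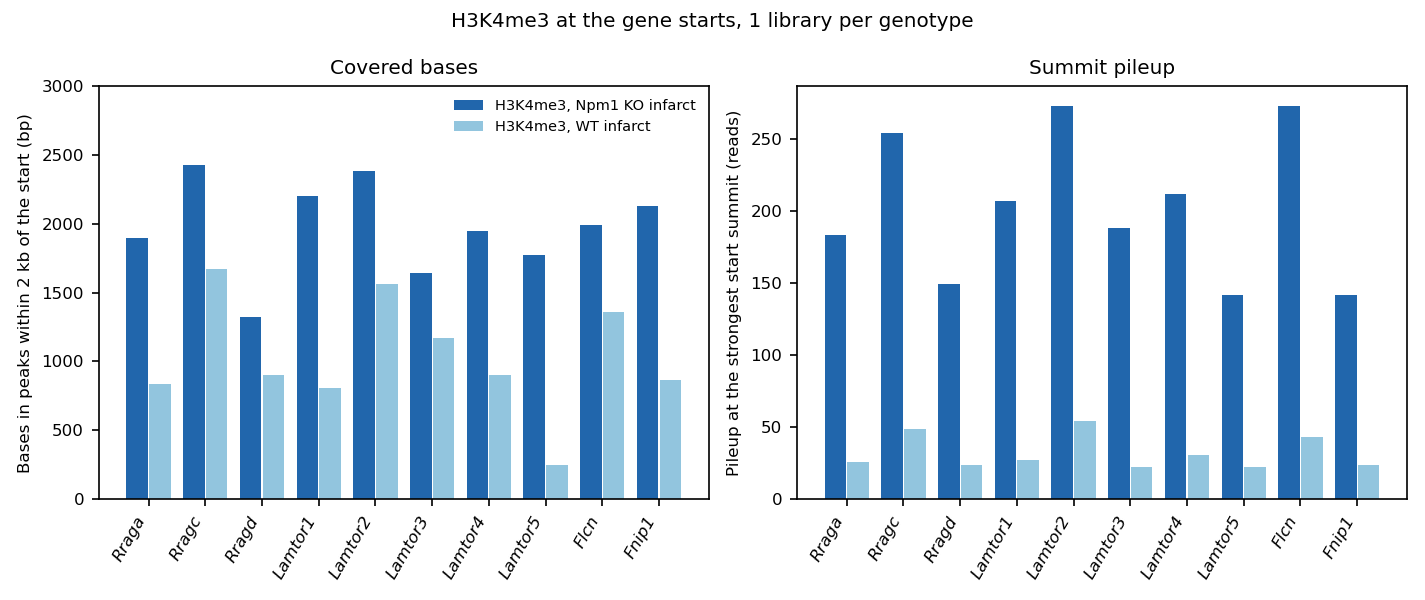
Bases covered by H3K4me3 peaks within 2 kb of each start (left, bp) and pileup at the strongest start summit (right, reads), with dark bars for Npm1 KO and light bars for WT infarct macrophages, 1 library each. The KO bar is the taller one in all 10 genes on both sides, from 1320 to 2426 bp in KO and 247 to 1671 bp in WT.

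Peaks also lay away from the starts. The infarct list had 12 peaks at the starts, 6 inside the genes and 5 in the flanks, and the sham list 0, 2 and 1 at these places. The IL-4 list had 11 at the starts, 9 inside and 10 in the flanks, and the untreated list 2 at the starts and no others. For H3K4me3 the KO list had 11 at the starts, 9 inside and 6 in the flanks, and the WT list 15, 13 and 9. Inside the gene bodies, beyond the start and end windows, the 6 lists together had peaks at 19 sites, of which 8 were shared by at least 2 lists. Shares over all genes were not counted for inside peaks, flank peaks or shared sites. These counts therefore cannot be set beside a general rate. The RefSeq gene table gives no exons, so exon, intron and UTR were not told apart here. Rragc had a site whose summit lay 10740 bp after the start in infarct (5.42-fold, −log10 q of 8.40, 431 bp) and 10755 bp after it in IL-4 (4.44-fold, 6.94, 440 bp). The KO H3K4me3 list had a 7.83-fold peak of 539 bp there (20.6), and the WT H3K4me3 list had none. The site spans chr4:123927854-123928392. At this site H3K4me3 was called in KO and not in WT.

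Flcn had an inner site that was present in 5 of the 6 lists. The fold was 5.07 in infarct (−log10 q of 10.4), 3.78 in sham (1.97, 8 reads), 4.43 in IL-4 (7.21), 3.13 in KO H3K4me3 (4.24) and 3.16 in WT H3K4me3 (2.48), with all summits between 6936 and 7073 bp after the start. This is the only site at which infarct and sham peaks coincided in these genes. Sham had 3 peaks near the 10 genes in all, this one, one inside Lamtor3 (3.50-fold, −log10 q of 1.41, 7 reads) that IL-4 (2.70-fold, 1.66) and WT H3K4me3 (3.81-fold, 3.59) also held, and one past the end of Lamtor4 inside Map11 (3.15-fold, 1.11).

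Fnip1 carried a pair of inner sites shared between lists. The first had its infarct summit 4460 bp after the start, with a fold of 2.49 in infarct (−log10 q of 1.37), 3.29 in IL-4 (4.32), 4.06 in KO H3K4me3 (32.7) and 5.48 in WT H3K4me3 (14.2). The other had its infarct summit at 54160 bp, with 874 bp and 5.41-fold in infarct (9.42) and 873 bp and 5.79-fold in IL-4 (12.3), over a pair of H3K4me3 peaks in KO (4.01-fold and 3.72-fold) and in WT (3.32-fold and 3.57-fold). Within each NPM1 list the outer site thus had the higher fold, and within each H3K4me3 list the first. Lamtor1 had a site with its infarct summit 2691 bp after the start, where NPM1 was 2.85-fold in infarct (3.85) and 3.36-fold in IL-4 (7.20), and where the WT H3K4me3 peak, 4.82-fold with a −log10 q of 13.0, was stronger than the one at the start (3.16-fold, 4.85). The KO start peak ran over it. Weak sites stood inside Lamtor4, in IL-4 (2.06-fold) and KO H3K4me3 (1.99-fold), and inside Rragd, in IL-4 (3.09-fold) and WT H3K4me3 (2.55-fold).

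Past the gene ends some peaks lay at neighbours. Rapgef6 starts 4568 bp beyond Fnip1, and its start peak was 8.05-fold in infarct, 6.79-fold in IL-4, 9.35-fold in KO H3K4me3 and 6.03-fold in WT H3K4me3. The peaks beyond Lamtor4 lay in or at the far end of Map11. These are among the flank peaks counted above, and they did not enter the counts of gene-end peaks within 1 kb.

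**Figure D4:**
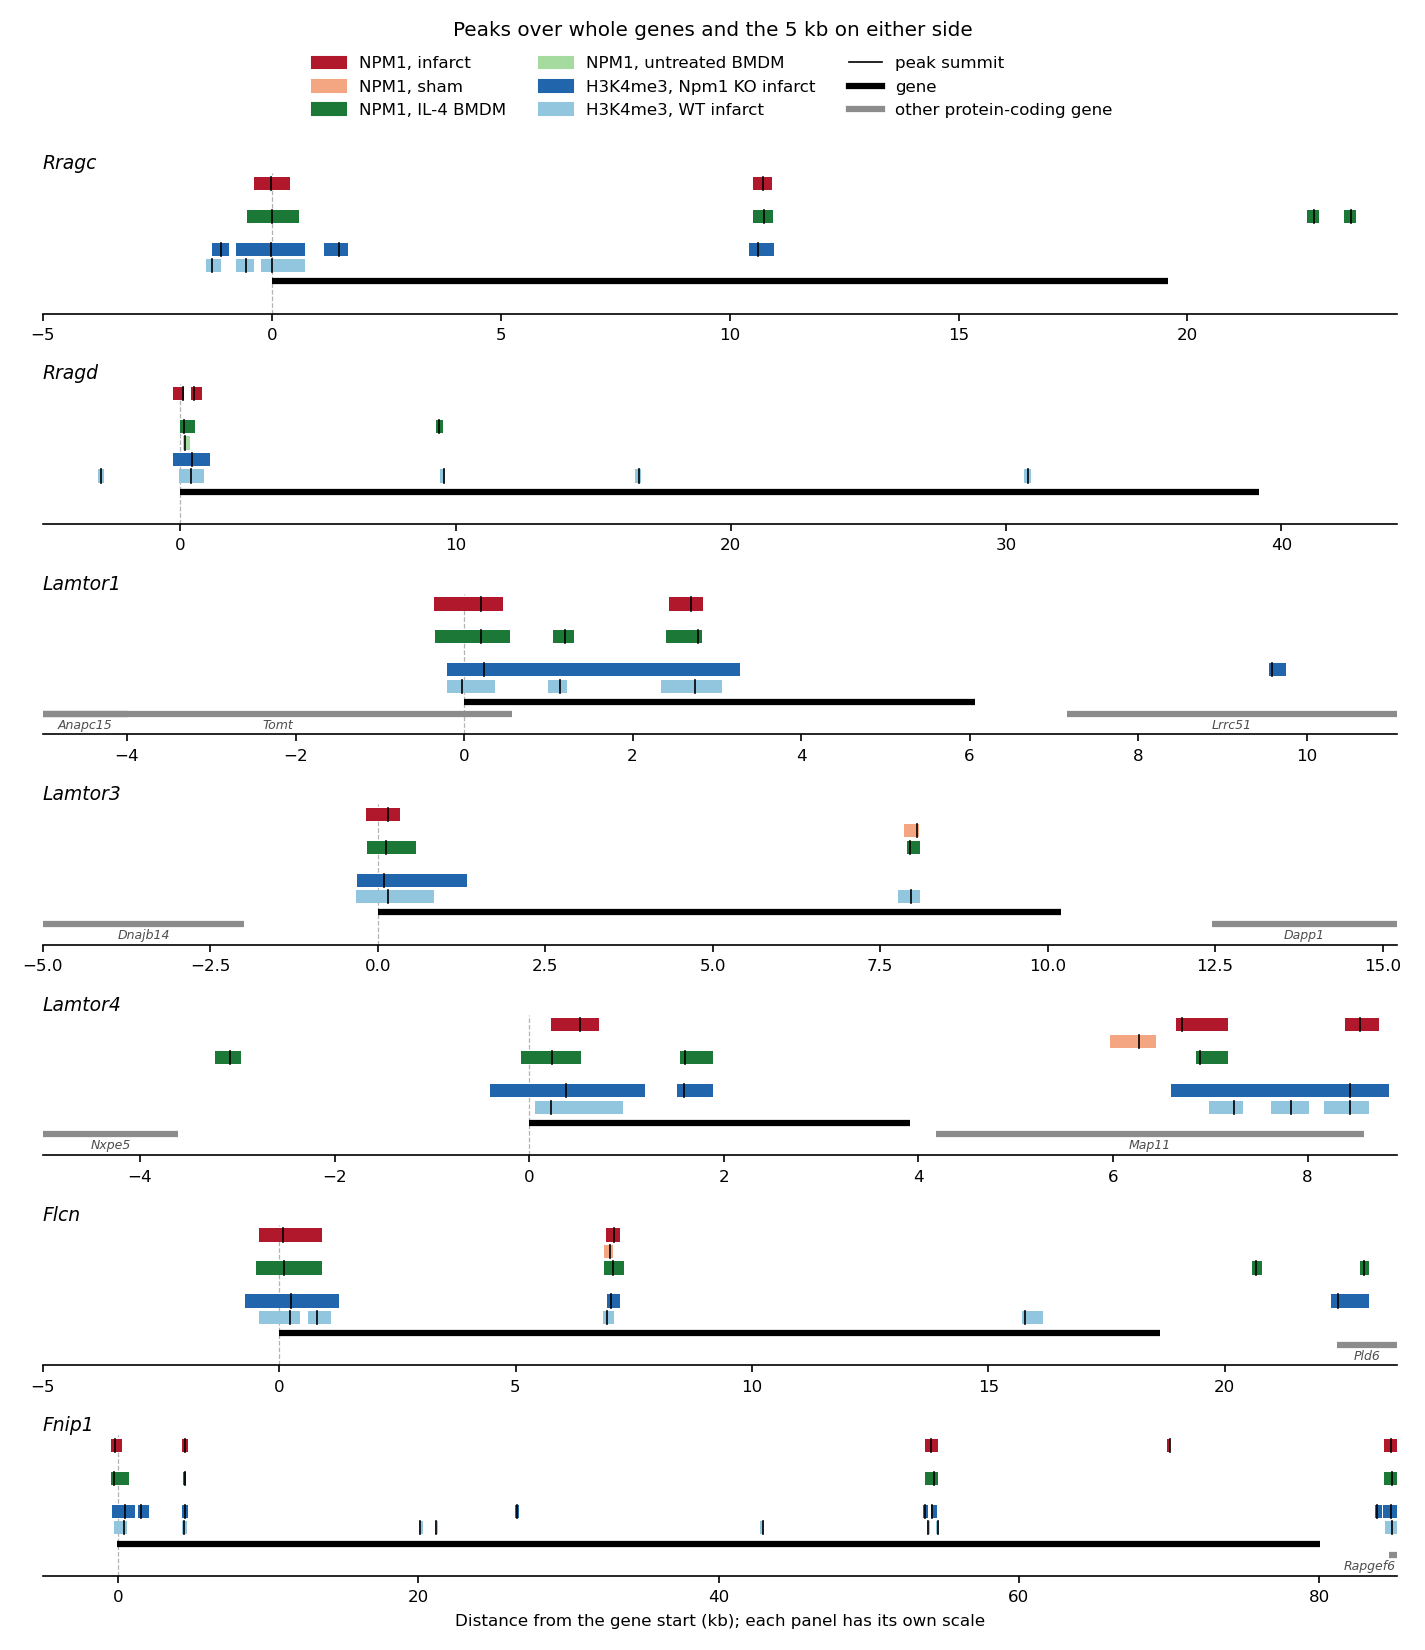
Peaks of the 6 libraries over the whole of Rragc, Rragd, Lamtor1, Lamtor3, Lamtor4, Flcn and Fnip1 and 5 kb on either side, with distance from the start in kb on the x axis and a scale of its own for each gene. Bars are peaks, ticks their summits and grey bars other protein-coding genes. The inner site of Flcn holds bars of 5 lists, and the inner site of Rragc holds infarct, IL-4 and KO H3K4me3 bars with no WT bar.

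The wider amino acid pathway was read the same way in a list of 41 genes (the other Rag, folliculin and mTORC1 subunits, GATOR, KICSTOR, the TSC complex, nutrient sensors and lysosomal partners), of which 40 were in the gene table. Of the 40, NPM1 gene-end peaks were called at 34 in infarct and 6 in sham, at 31 in IL-4 and 4 in untreated BMDM, and H3K4me3 at 37 in KO and 37 in WT, the same 37 genes. The shares of all genes are those given above (50.6% in infarct, 10.9% in sham, 51.2% in IL-4 and 6.71% in untreated BMDM). Among H3K4me3-marked genes they were 79.2% in infarct and 78.3% in IL-4. All the NPM1 calls fell among the 37 listed genes with H3K4me3. The matching counts are therefore 34 of 37 in infarct and 31 of 37 in IL-4, both above those shares, a difference that was not tested. NPM1 was called in infarct and not in sham at 28 (43.4% of all genes), in both at 6 (7.14%) and in sham only at 0 (3.75%). It was called in IL-4 and not in untreated BMDM at 28 (46.5% of all genes), in both at 3 (4.73%) and in untreated BMDM only at 1 (1.98%). That gene was Castor2, an arginine sensor paralogue (3.52-fold, −log10 q of 1.62). With −log10 q of 5 or more the NPM1 counts were 22 in infarct (27.9% of all genes), 0 in sham (0.681%), 21 in IL-4 (29.4%) and 0 in untreated BMDM (0.397%). In a reading added after the data were seen, only the 1 kb on either side of the RefSeq start was used, or of both ends for the 6 genes with no promoter entry. The counts were then 35 in infarct and 1 in sham (Deptor), 33 in IL-4 and 3 in untreated BMDM, and 40 in KO and 39 in WT for H3K4me3. Shares over all genes were not counted in this start window, and those above are for either gene end. Deptor is among the 6 with no entry, and the sham peaks of the other 5 genes were not at the start.

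The highest −log10 q of the list among genes called in infarct and not in sham were those of Akt1s1, which codes for the mTORC1 inhibitor PRAS40 (5.38-fold, 34.5), and Fnip2, the other folliculin adaptor (6.73-fold, 34.1, 1213 bp). Among those called in IL-4 and not in untreated BMDM they were Fnip2 (7.91-fold, 52.1, 1057 bp) and Akt1s1 (5.38-fold, 36.2). Fnip2 thus carried more NPM1 signal than Fnip1 in both lists by −log10 q. Rragb, the RagA paralogue, Slc38a9, a lysosomal arginine transporter that works with Ragulator and the Rags, and Borcs5, a subunit of a complex that binds Ragulator, had no gene-end peak in any list. Read at the RefSeq start instead, Rragb had a peak in 1 list, KO H3K4me3, and Slc38a9 and Borcs5 in 4 each. The gene-end count therefore leaves out the starts of all 3.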

How the data were processed

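The submitters' processing notes name MACS2 2.2.7.1, Bowtie2, deepTools and bcl2fastq 2.17 and the build mm10. Not given in the sources used here are settings, duplicate handling, any control library and any spike-in. Each deposited list was called on 1 library. Its score is 10 times the −log10 p that the authors deposited, its fold enrichment is the deposited ratio of summit pileup to local background with 1 added to each, and the −log10 q is as deposited. The smallest deposited −log10 p was 2.01 to 2.02, the smallest width 200 bp, and 5.01% to 27.8% of the peaks of a list had q above 0.05.

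Pileup and background were recovered from the fold and −log10 p to within 0.001 for 99.9% of summits. Genes and promoters came from RefSeq tables of GRCm38.p6. Positions are 1-based, and distances count from the annotated start as 0. Fold, q and rank describe peaks within their list, and an absent peak was not called at that depth. No test across samples was possible. The genes, lists, thresholds and alternatives were chosen with earlier results of these data known. The rule named all 10 genes and, for the pathway list, the leading 2 by −log10 q in each NPM1 pair, and genes without peaks complete a count. Peak counting and pileup recovery were tested on simulated peak lists. Alternatives were stricter q and fold, other windows, equal list lengths and reciprocal overlap. Python 3.11.15, numpy 2.4.6, pandas 2.3.3, scipy 1.17.1 and matplotlib 3.10.9 were used.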

Additional observations from a re-analysis of the deposited data

How the results depend on the processing

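Of the counts over the 10 genes, none reversed. Without peaks under a −log10 q of 5 the gene-end count was 6 in infarct and 0 in untreated BMDM. It was 6 for infarct and not sham (27.5% of all genes), and 1 for KO H3K4me3 and not WT (Lamtor1, 14.5% of all genes). Without peaks under 4-fold it was 6 in infarct, 0 in untreated BMDM, 6 for infarct and not sham, and 2 for KO H3K4me3 and not WT (Lamtor1 and Fnip1). With a 500-bp window it was 1 in untreated BMDM (Rragd), with a 2500-bp window 2 in sham (Lamtor3 and Lamtor4), and with the gene extent and 5 kb on either side 3 in sham (Flcn in addition). Requiring an overlap of at least 50% of both peaks left 5 genes with a shared infarct and IL-4 start peak. Shares over all genes were not counted under the 4-fold, window and 50% overlap settings. The counts at those settings therefore cannot be set beside a general rate. The causes were not tested. The other 93 values, among them lists of equal length, q of 0.05 or less and the coverage within 5 kb, stayed within 1.5 times the main value. No paired analysis was possible because each group had 1 library and the labels give no replicate numbers, and for the same reason no replicate could be left out. Depth limits most the sham and untreated lists, where peaks of 7 or 8 reads were called near these genes.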
